A study of Arabidopsis with 12 samples.

Results

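The mitochondria-encoded loci were taken as all rows of the deposited expression table whose identifier begins with ATMG, which gave 122 loci of 27371 genes in all. Their transcripts were measured by RNA-Seq in whole 14-day-old *Arabidopsis* seedlings of the mutant *wlim2a-1* and of WT (Col-0). The 4 conditions were *wlim2a-1* flg22, *wlim2a-1* mock, WT flg22 and WT mock. *wlim2a-1* is a CRISPR-Cas9 allele in which an inserted nucleotide shifts the reading frame of *WLIM2A*, a gene for an actin-binding LIM protein, and it was the only mutant line sequenced. All seedlings were raised on ½ MS agar and kept in liquid ½ MS medium overnight. They were then treated for 1 h with flg22 at 1 µM or with water (mock). The flg22 peptide is a piece of the flagellin of bacteria that plants sense as a sign of infection. Each condition had 3 biological replicates, 12 samples in all, and the authors combined the replicates into 1 value per gene and condition. That value is an FPKM, in general a count of sequenced fragments set against both the length of the transcript and the total mapped. The paper names quartile normalization for its program Cuffdiff, so the scale of the deposited values may not be that total. No spread between replicates can be computed from 1 value per condition, so no SD, test, p-value or confidence interval stands beside any number. The comparisons asked how the mitochondrial transcripts differed after flg22 in each genotype and between the genotypes in each treatment.

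Plant mitochondria keep a small genome of their own. It encodes some core subunits of the respiratory complexes I, III, IV and V, proteins that attach heme to cytochromes of the *c* type, a few ribosomal proteins, ribosomal and transfer RNAs, and many open reading frames without a known product. Most respiratory subunits, and the RNA polymerases that transcribe the mitochondrial genome, are encoded in the nucleus and imported. Mitochondrial messengers of plants are spliced, some of them from separately transcribed pieces, and edited, and a poly(A) tail marks them for degradation, so a library made from messenger RNA holds few of them. In *Arabidopsis*, a large copy of the mitochondrial genome also lies beside the centromere of chromosome 2.

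The RefSeq annotation of TAIR10.1 lists 33 protein-coding records for the mitochondrial genome under 32 symbols. Counted as records, 9 are for complex I (*nad*), 1 for complex III (*cob*), 3 for complex IV (*cox*) and 6 for complex V (*atp*). The remaining records are 5 for cytochrome *c* maturation (*ccm*) and 4 and 3 for the small and the large ribosomal subunit (*rps* and *rpl*). The maturase gene *matR* and the transport gene *mttB* complete them, beside 3 records for ribosomal RNAs. This annotation pairs none of these records with an ATMG identifier, and neither the expression table nor the paper names the ATMG loci. The planned comparison of respiratory, ribosomal and unnamed reading frames could therefore not be made. The loci are given below by identifier, without symbol or role.

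The remaining transcriptome gave the following frame. *WLIM2A* (AT2G39900) had 6.20 FPKM in *wlim2a-1* flg22, 10.9 in *wlim2a-1* mock, 11.6 in WT flg22 and 12.6 in WT mock, which does not check the genotype because the allele is a small insertion. Markers of green tissue and of root were present in whole seedlings, with 639 to 838 FPKM of *RCA*, the activase of the carbon-fixing enzyme Rubisco, and 18.7 to 22.3 FPKM of the root gene *SCR*. The pollen gene *VGD1* and the seed storage genes *CRU3* and *SESA3* were listed at 0 in all 4 conditions. Another pollen gene, *PLIM2c*, lay between 0.0193 FPKM in *wlim2a-1* mock and 0.138 FPKM in *wlim2a-1* flg22. A listed 0 need not mean that a transcript was absent. *RBCS1A*, a small subunit of Rubisco, and *CAB1*, a light-harvesting protein, were among the high values of *wlim2a-1* (*RBCS1A* 11504 FPKM in flg22 and 14401 in mock, *CAB1* 24963 in flg22 and 29857 in mock) and were listed at 0 in both WT conditions. The locus AT2G01021 took 67.4% of all FPKM in *wlim2a-1* flg22, 56.5% in *wlim2a-1* mock, 28.9% in WT flg22 and 67.4% in WT mock.

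The mitochondrial loci were weakly represented and uneven in level. Of the 122 loci, 20 were listed at 0 in every condition and 44 were above 0 somewhere but below 1 FPKM everywhere. The other 58 reached 1 FPKM in at least 1 condition and were compared. Just below that limit lay ATMG01170 and ATMG00490, whose highest values were 0.908 and 0.961 FPKM, and just above it lay ATMG00320 and ATMG00610, whose highest values were 1.02 and 1.03 FPKM. In 27 loci the value was 1 FPKM or more in all 4 conditions, 46.6% of the compared loci against 90.7% of all 19323 compared genes. The median over the 58 compared loci was 1.81 FPKM in *wlim2a-1* flg22, 2.01 in *wlim2a-1* mock, 1.44 in WT flg22 and 1.27 in WT mock, whereas that over all compared genes lay between 7.94 and 8.68 FPKM. Over the 27 loci it was 4.04 FPKM in *wlim2a-1* flg22, 4.96 in *wlim2a-1* mock, 2.72 in WT flg22 and 3.20 in WT mock.

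A single locus, ATMG00030, held more of the mitochondrial FPKM than any other in each condition. It had 214 FPKM in *wlim2a-1* flg22, 167 in *wlim2a-1* mock, 136 in WT flg22 and 116 in WT mock. The second highest values in the same conditions were 20.5, 20.6, 19.2 and 18.0 FPKM. They belonged to ATMG00080 in *wlim2a-1* mock and to ATMG01000 in the other conditions. Both *wlim2a-1* values of ATMG00030 were above both WT values, and in each genotype the flg22 value was the higher. The second of these orders depended on the scaling, since the log2 difference between flg22 and mock was 0.35 in *wlim2a-1* and 0.22 in WT as deposited, and −0.28 in *wlim2a-1* and −0.36 in WT when scaled to the reference genes *ACT2* and *UBQ10*. Its share of the summed mitochondrial FPKM was 51.2% in *wlim2a-1* flg22, 41.1% in *wlim2a-1* mock, 43.6% in WT flg22 and 41.8% in WT mock. ATMG01000, the second locus by mean level, varied little, with 20.5 FPKM in *wlim2a-1* flg22, 16.3 in *wlim2a-1* mock, 19.2 in WT flg22 and 18.0 in WT mock. ATMG01000 was named after its values were seen.

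**Figure D1:**
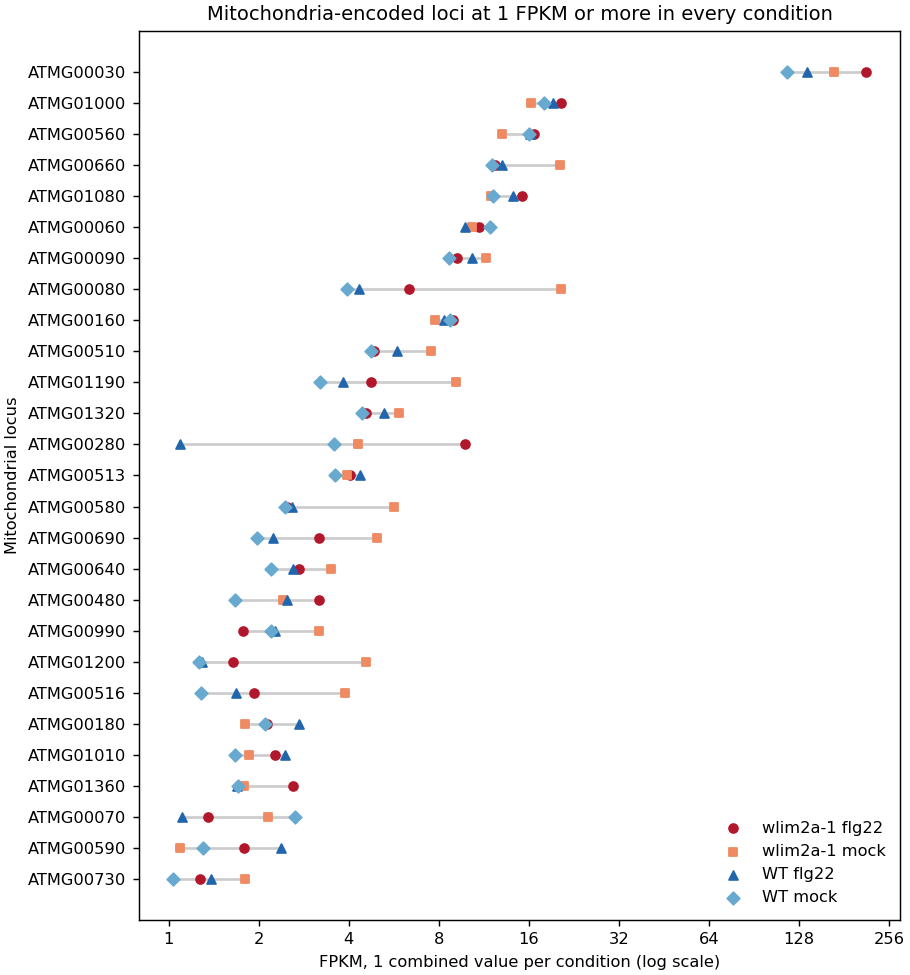
FPKM (horizontal axis, log scale) of the 27 mitochondrial loci with 1 FPKM or more in every condition, ordered by mean level, with 1 combined value per condition as a point and a grey line over their range. ATMG00030 stands apart at 116 to 214 FPKM, ATMG00080 is far to the right only in *wlim2a-1* mock (20.6 FPKM), and ATMG00280 spans 1.09 FPKM in WT flg22 to 9.83 FPKM in *wlim2a-1* flg22.

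The summed FPKM of all 122 loci was 418 in *wlim2a-1* flg22, 408 in *wlim2a-1* mock, 312 in WT flg22 and 279 in WT mock. Both *wlim2a-1* sums were above both WT sums, by a ratio of 1.46 in mock and of 1.34 after flg22. ATMG00030 weighed differently in these ratios. Without it the sums were 204 in *wlim2a-1* flg22, 240 in *wlim2a-1* mock, 176 in WT flg22 and 162 in WT mock, so that the ratio of *wlim2a-1* to WT was 1.48 in mock and 1.16 after flg22. In FPKM as deposited, the ratio of flg22 to mock was 1.03 in *wlim2a-1* with ATMG00030 and 0.850 without it, and 1.12 in WT with it and 1.08 without it. Relative to all FPKM outside AT2G01021, the mitochondrial loci made up 0.0559% in *wlim2a-1* flg22, 0.0482% in *wlim2a-1* mock, 0.0371% in WT flg22 and 0.0341% in WT mock. In RNA of whole seedlings, a change in the number of mitochondria or of cells rich in them cannot be told apart from a change in transcripts per mitochondrion.

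**Figure D2:**
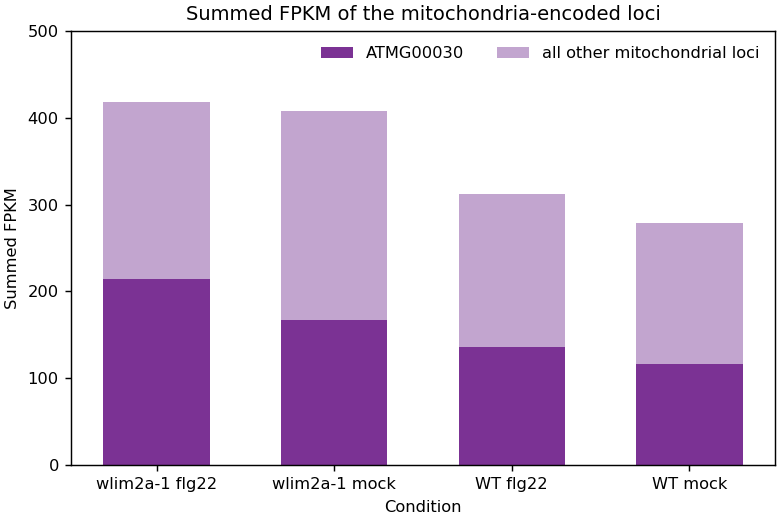
Summed FPKM (vertical axis) of the 122 mitochondrial loci in each condition, split into ATMG00030 (dark) and all other loci (light). The totals are 418 in *wlim2a-1* flg22, 408 in *wlim2a-1* mock, 312 in WT flg22 and 279 in WT mock, and the part outside ATMG00030 is highest in *wlim2a-1* mock (240).

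The number of loci that could be seen also differed. At 1 FPKM or more there were 38 loci in *wlim2a-1* flg22, 52 in *wlim2a-1* mock, 34 in WT flg22 and 34 in WT mock. Listed at 0 were 39 loci in *wlim2a-1* flg22, 45 in *wlim2a-1* mock, 30 in WT flg22 and 43 in WT mock, so *wlim2a-1* mock had both the most loci above 1 FPKM and the most at 0. Of the compared loci, 17 reached 1 FPKM only in *wlim2a-1* mock, 2 only in *wlim2a-1* flg22 and 0 only in either WT condition. Over all compared genes, 1.55% reached it only in *wlim2a-1* mock. The 17 loci entered the comparison through the condition in which they were high, so for them a higher value in *wlim2a-1* mock follows from the entry rule.

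Differences were taken on the scale of log2(FPKM + 1), on which the difference of a low gene is smaller than that of its FPKM ratio. Higher and lower below mean a difference in FPKM + 1 of 2-fold or more where a count of loci is given. In mock, mitochondrial transcripts were mostly at higher levels in *wlim2a-1* than in WT. The log2 difference was positive for 46 and negative for 12 of the 58 loci, with a median of 0.51 (quartiles 0.10 and 1.04) against 0.01 over all compared genes. This split counts the 17 loci that entered only through *wlim2a-1* mock, whose positive sign follows from the entry rule. Of the 27 loci with 1 FPKM or more in every condition, 19 differences were positive and 8 negative. By 2-fold or more, 17 loci had the higher value in *wlim2a-1* mock and 2 the lower, 29.3% and 3.45% of the compared loci. Over all compared genes 4.48% were higher and 0.611% were lower, 5.09% in either direction. WT mock was listed at 0 for 4 of the 17 higher loci, and 9 of the 17 reached 1 FPKM only in *wlim2a-1* mock. Among the 27 loci at 1 FPKM or more in every condition, 5 were higher (18.5%) and 0 lower, with a median of 0.35, whereas 3.82% of all genes under the same limit were higher and 0.331% were lower.

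The 5 higher loci of these 27 were ATMG00080, ATMG01190, ATMG01200, ATMG00516 and ATMG00690. ATMG00080 had 6.36 FPKM in *wlim2a-1* flg22, 20.6 in *wlim2a-1* mock, 4.33 in WT flg22 and 3.94 in WT mock. Its *wlim2a-1* mock value was far above the other 3, and the log2 difference from WT mock was 2.13. ATMG01190 had 4.74 FPKM in *wlim2a-1* flg22, 9.12 in *wlim2a-1* mock, 3.82 in WT flg22 and 3.20 in WT mock (log2 difference in mock 1.27). For ATMG01200 the values were 1.65 FPKM in *wlim2a-1* flg22, 4.58 in *wlim2a-1* mock, 1.29 in WT flg22 and 1.26 in WT mock (log2 difference in mock 1.30). These loci shared a profile in which *wlim2a-1* mock stood alone and the 3 other conditions lay close together. ATMG00516, at 1.93 FPKM in *wlim2a-1* flg22, 3.89 in *wlim2a-1* mock, 1.68 in WT flg22 and 1.29 in WT mock, and ATMG00690, at 3.18, 4.96, 2.23 and 1.97 FPKM in the same conditions, had log2 differences in mock of 1.10 and 1.01. Both were named after their values were seen.

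Other loci of the 27 were nearly level between the genotypes in mock. The most negative differences were those of ATMG00560 (log2 −0.27, 13.0 FPKM in *wlim2a-1* mock, 16.0 FPKM in WT mock), ATMG00070 (−0.21, 2.15 and 2.64 FPKM in the same conditions) and ATMG00060 (−0.19, 10.3 and 11.9 FPKM), none of them near 2-fold. By mean level over the conditions, the median difference in mock was 0.36 for the 12 loci at 5 FPKM or more, 0.37 for 14 loci from 2 to below 5 FPKM, 0.51 for 14 loci from 1 to below 2 FPKM and 0.68 for the 18 loci below 1 FPKM, many of which entered through *wlim2a-1* mock.

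The loci outside the 27 included larger contrasts at low levels, and those singled out here were chosen after their values were seen. ATMG00620 had 0.251 FPKM in *wlim2a-1* flg22, 5.95 in *wlim2a-1* mock, 0.467 in WT flg22 and 0.652 in WT mock, with a log2 difference in mock of 2.07. It was the highest in *wlim2a-1* mock among loci below 1 FPKM in the other 3 conditions. ATMG00520 was at 0.00220 FPKM in *wlim2a-1* flg22 and 2.104 in *wlim2a-1* mock and was listed at 0 in both WT conditions. ATMG00680 had 1.12 FPKM in *wlim2a-1* mock and was listed at 0 in the 3 other conditions. The 2 loci that were lower in *wlim2a-1* mock were ATMG00530, with 2.91 FPKM in *wlim2a-1* flg22, 0.401 in *wlim2a-1* mock, 3.54 in WT flg22 and 2.06 in WT mock, and ATMG00650, with 2.21 FPKM in *wlim2a-1* flg22, a listed 0 in *wlim2a-1* mock, 1.89 in WT flg22 and 1.41 in WT mock. Both had their lowest value in *wlim2a-1* mock, the condition in which most loci were highest.

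**Figure D3:**
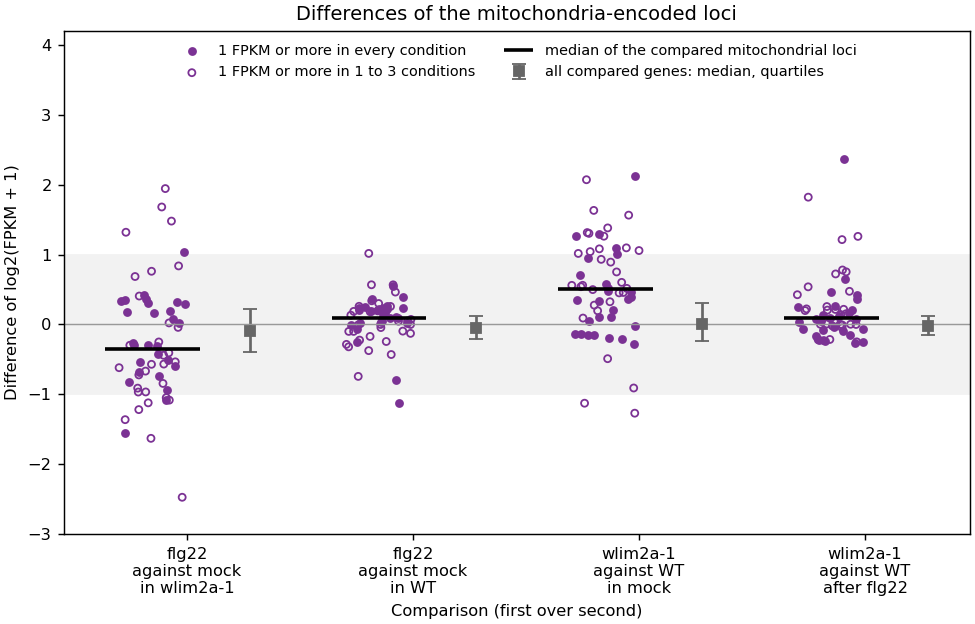
Difference of log2(FPKM + 1) (vertical axis) for the 58 compared mitochondrial loci in the 4 comparisons, filled where the locus had 1 FPKM or more in every condition, with the median of the 58 loci as a bar, the median and quartiles of all compared genes in grey and the range within 2-fold shaded. The bar lies at −0.36 for flg22 in *wlim2a-1*, 0.09 for flg22 in WT (−0.25 when the values were scaled to *ACT2* and *UBQ10*), 0.51 for *wlim2a-1* over WT in mock and 0.09 after flg22. It includes 17 loci that entered only through *wlim2a-1* mock. Over the 27 filled loci the medians are −0.27, 0.17, 0.35 and 0.09 in the same order.

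After flg22, the genotypes were closer. The median log2 difference of *wlim2a-1* from WT was 0.09 (quartiles −0.05 and 0.26) against −0.02 over all compared genes, with 38 positive and 18 negative differences. By 2-fold or more, 4 of the 58 loci were higher (6.90%) and 0 were lower, against 1.16% and 0.352% of all compared genes (1.52% in either direction). The higher loci were ATMG00280, ATMG00980, ATMG01060 and ATMG01020. ATMG00280 alone of these was at 1 FPKM or more in every condition, where 0.576% of all genes were higher and 0.137% were lower, and 2 of the other 3 reached 1 FPKM only in *wlim2a-1* flg22.

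ATMG00280 had 9.83 FPKM in *wlim2a-1* flg22, 4.29 in *wlim2a-1* mock, 1.09 in WT flg22 and 3.56 in WT mock. The mock values of the genotypes were close, while the flg22 values lay on either side of them, and *wlim2a-1* differed from WT by 2.37 on the log2 scale after flg22 and by 0.21 in mock. The next positive differences after flg22 among the 27 loci were those of ATMG00030 (0.65) and ATMG00080 (0.46), both below 2-fold. The most negative were those of ATMG00590 (−0.27, with 1.79 FPKM in *wlim2a-1* flg22 and 2.37 in WT flg22), ATMG00180 (−0.25, 2.13 and 2.72 FPKM) and ATMG00990 (−0.24, 1.77 and 2.27 FPKM). ATMG00980, at 6.44 FPKM in *wlim2a-1* flg22, 0.930 in *wlim2a-1* mock, 2.102 in WT flg22 and 1.71 in WT mock, differed by 1.26 after flg22. ATMG01060 had 3.55 FPKM in *wlim2a-1* flg22, 0.822 in *wlim2a-1* mock, 0.286 in WT flg22 and 0.326 in WT mock, and ATMG01020 had 1.55, 0.427, 0.0990 and 0.339 FPKM in the same conditions. All of these last 3 loci had their highest value in *wlim2a-1* flg22, and they were named after their values were seen.

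In *wlim2a-1*, mitochondrial loci differed in both directions between flg22 and mock. Among the 27 loci at 1 FPKM or more in every condition, 13 differences were positive and 14 negative, with a median of −0.27. Over all 58 loci the median log2 difference was −0.36 (quartiles −0.80 and 0.31) against −0.09 over all compared genes, with 22 positive and 36 negative differences, but 17 of the 58 entered only through *wlim2a-1* mock, for which a lower value after flg22 follows from the entry rule. By 2-fold or more, 5 loci were higher and 9 were lower, 8.62% and 15.5% of the compared loci, whereas 5.53% of all compared genes were higher and 4.25% were lower (9.78% in either direction). Scaled to the sum without AT2G01021, 5 loci were higher and 7 lower, beside 6.98% and 2.9% of all compared genes. With the mean of *ACT2* and *UBQ10* as the scale, 3 were higher and 22 lower, beside 2.89% and 21.3% of all compared genes. Of the 9 lower loci, 6 reached 1 FPKM in only 1 condition. Of the 27 loci, 1 was higher and 2 were lower, beside 4.76% higher and 3.86% lower among all genes under the same limit. Comparing *wlim2a-1* with WT in mock uses the same *wlim2a-1* mock values, so low values after flg22 and high values against WT mock are not separate results.

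Within *wlim2a-1*, the most negative differences among the 27 loci were those of ATMG00080 (−1.55), ATMG01200 (−1.08) and ATMG00580 (−0.94). ATMG00580 had 2.49 FPKM in *wlim2a-1* flg22, 5.67 in *wlim2a-1* mock, 2.58 in WT flg22 and 2.45 in WT mock, again with *wlim2a-1* mock standing alone. The most positive were ATMG00280 (1.03), ATMG00590 (0.42) and ATMG01360 (0.37). ATMG01360 had 2.60 FPKM in *wlim2a-1* flg22, 1.79 in *wlim2a-1* mock, 1.69 in WT flg22 and 1.70 in WT mock, so that *wlim2a-1* flg22 was its high condition, although scaled to *ACT2* and *UBQ10* its difference was −0.07. The 5 higher loci were ATMG00280, ATMG00530, ATMG00650, ATMG00980 and ATMG01060, whose values are given above. They were highest in *wlim2a-1* flg22, apart from ATMG00530, which was highest in WT flg22.

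In WT, the mitochondrial loci differed little between flg22 and mock. The median log2 difference was 0.09 (quartiles −0.09 and 0.23) against −0.05 over all compared genes, with 37 positive and 19 negative differences. This sign depended on the scaling, since with *ACT2* and *UBQ10* as the scale the median was −0.25, while that of all compared genes was −0.54. By 2-fold or more, 1 locus was higher and 1 was lower, 1.72% each, against 4.47% and 0.471% of all compared genes (4.94% in either direction). Of the 58 loci, 0 were higher and 1 lower with the values scaled to the sum without AT2G01021 (4.26% and 0.512% of all compared genes), and 0 were higher and 2 lower with those scaled to *ACT2* and *UBQ10* (2.59% and 3.77%). Among the 27 loci at 1 FPKM or more in every condition, 22 differences were positive and 5 negative as deposited. The median over the 27 loci was 0.17, beside −0.05 over all genes under the same limit. By 2-fold or more, 0 of the 27 loci were higher and 1 was lower, beside 3.96% and 0.268% of all genes under that limit. The lower locus was ATMG00280 (−1.13), with 1.09 FPKM in WT flg22 and 3.56 in WT mock. The higher locus was ATMG01220 (1.02), with 2.74 FPKM in *wlim2a-1* flg22, 2.84 in *wlim2a-1* mock, 2.13 in WT flg22 and 0.544 in WT mock, where WT mock stood below the 3 other conditions. ATMG01220 was named after its values were seen.

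Other differences in WT were below 2-fold. The next most negative among the 27 loci were ATMG00070 (−0.79, 1.11 FPKM in WT flg22 and 2.64 in WT mock) and ATMG00060 (−0.25, 9.81 and 11.9 FPKM in the same conditions). The most positive were ATMG00590 (0.55, 2.37 FPKM in WT flg22 and 1.31 in WT mock), ATMG00480 (0.39, 2.49 and 1.67 FPKM) and ATMG01010 (0.37, 2.45 and 1.67 FPKM), and with *ACT2* and *UBQ10* as the scale those of ATMG00480 and ATMG01010 were slightly below 0 (−0.0047 and −0.02).

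The responses to flg22 in the genotypes were then set against each other. Subtracting the log2 response in WT from that in *wlim2a-1* gave a median of −0.42 over the 58 loci and −0.04 over all compared genes. For the 17 loci that entered only through *wlim2a-1* mock, a negative response in *wlim2a-1* follows from the entry rule. The median was −0.20 over the 27 loci at 1 FPKM or more in every condition, beside −0.04 over all genes under that limit. The response differed by 2-fold or more for 17 loci, higher in *wlim2a-1* for 5 (8.62%) and lower for 12 (20.7%), against 1.46% and 3.7% of all compared genes (5.16% in either direction). Scaled to the sum without AT2G01021, it was higher for 6 of the 58 loci and lower for 8, beside 2.34% and 2.43% of all compared genes. Of the 12 lower loci, 7 reached 1 FPKM in only 1 condition. Among the 27 loci at 1 FPKM or more in every condition, 1 response was higher and 3 were lower, beside 0.736% and 3.09% of all genes under the same limit. The higher response was that of ATMG00280 (2.16), and the lower ones were those of ATMG00080 (−1.66), ATMG01200 (−1.10) and ATMG01190 (−1.02). With 1 value per condition, none of these differences between responses could be tested.

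**Figure D4:**
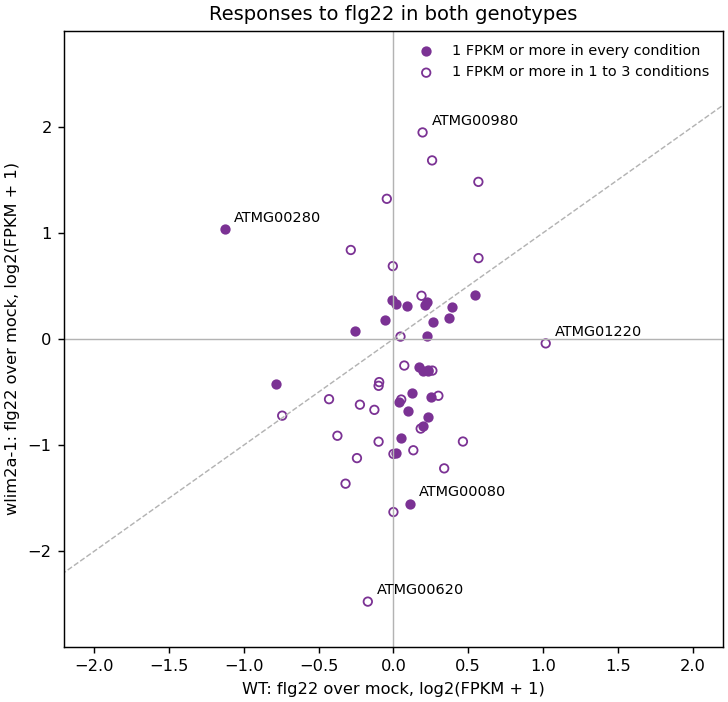
Response to flg22 in *wlim2a-1* (vertical axis) and in WT (horizontal axis), both as the difference of log2(FPKM + 1) between flg22 and mock, for the 58 compared mitochondrial loci, filled where the locus had 1 FPKM or more in every condition, with equal responses on the dashed line. The points spread further along the vertical axis (quartiles −0.80 and 0.31) than along the horizontal one (−0.09 and 0.23), and ATMG00280 lies at 1.03 in *wlim2a-1* and −1.13 in WT.

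The conditions were also compared by Pearson's r of log2(FPKM + 1) across loci. Over the 27 loci at 1 FPKM or more in every condition, r with *wlim2a-1* mock was 0.912 for *wlim2a-1* flg22, 0.892 for WT flg22 and 0.904 for WT mock. The pairs without *wlim2a-1* mock had an r of 0.934 between *wlim2a-1* flg22 and WT flg22, 0.968 between *wlim2a-1* flg22 and WT mock and 0.968 between WT flg22 and WT mock. Over all 58 loci, r was 0.801 to 0.855 with *wlim2a-1* mock and 0.935 to 0.968 without it, but the 17 loci that entered only through *wlim2a-1* mock lower the values with it by construction. Leaving out ATMG00030, by far the highest locus, gave 0.703 to 0.788 and 0.905 to 0.954 for the same pairs. The weight of ATMG00030 in r over the 27 loci was not tested. Over all compared genes, r was 0.906 to 0.930 with *wlim2a-1* mock and 0.910 to 0.961 without it, so these ranges overlapped. The loci share the same libraries and are not independent, and r is given as a description. The highest of the 4 values was that of *wlim2a-1* flg22 for 15 of the 58 loci, of *wlim2a-1* mock for 35, of WT flg22 for 5 and of WT mock for 3, which again counts the 17 loci. Over all compared genes, *wlim2a-1* mock was the highest condition for 39.2%. Among the 27 loci at 1 FPKM or more in every condition, *wlim2a-1* mock was the highest for 13 (48.1%) and WT mock the lowest for 16 (59.3%), against 39.5% and 16.9% of all genes under the same limit.

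Chloroplast-encoded loci, whose transcripts also lack stable poly(A) tails, had medians of the same sign as the mitochondrial ones in every comparison except flg22 in WT, and further from 0. Of 88 loci, 83 were compared. In mock, 65 were higher (78.3%) and 5 lower (6.02%) in *wlim2a-1*, with a median log2 difference of 2.00, beside 4.48% and 0.611% of all compared genes. After flg22, 25 were higher (30.1%) and 3 lower (3.61%) than in WT (median 0.46), beside 1.16% and 0.352%. With flg22 in *wlim2a-1*, 6 were higher (7.23%) and 59 lower (71.1%), with a median of −1.67, beside 5.53% and 4.25%. With flg22 in WT, 2 were higher (2.41%) and 12 lower (14.5%), with a median of −0.29, beside 4.47% and 0.471%. The summed chloroplast FPKM was 11504 in *wlim2a-1* flg22, 41273 in *wlim2a-1* mock, 10657 in WT flg22 and 15705 in WT mock, so that its ratio of *wlim2a-1* to WT was 2.63 in mock and 1.08 after flg22. For the mitochondrial loci these ratios were 1.46 and 1.34. The part that the yield of organelle RNA in each library had in these differences was not tested.

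Loci of the mitochondrial copy on chromosome 2 can share reads with ATMG loci, and the separate values of either are then uncertain. The 66 loci from AT2G07660 to AT2G07835 were taken for this copy, and 33 were compared. Their medians were near those of the ATMG loci. They were 0.55 for *wlim2a-1* against WT in mock, 0.13 after flg22, −0.25 for flg22 in *wlim2a-1* and 0.01 for flg22 in WT. As with the ATMG loci, some of the 33 entered only through *wlim2a-1* mock, AT2G07705 and AT2G07722 among them. For such loci, a positive difference in mock and a negative one for flg22 in *wlim2a-1* follow from the entry rule. In mock, 11 of the 33 were higher (33.3%) and 1 lower (3.03%) in *wlim2a-1*, beside 4.48% and 0.611% of all compared genes. AT2G07698 had 4.12 FPKM in *wlim2a-1* flg22, 11.2 in *wlim2a-1* mock, 3.65 in WT flg22 and 3.12 in WT mock, close to the values of ATMG01190 given above, a likeness noticed after the values were seen. The other extreme was formed by AT2G07684 and AT2G07830, with 422 and 309 FPKM in *wlim2a-1* flg22 and 0 listed in the 3 other conditions. Their values exceeded that of ATMG00030 in *wlim2a-1* flg22. How many reads the ATMG loci shared with these loci was not tested.

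Nuclear genes for respiration stayed within 2-fold. Those compared lay between 1.64 FPKM (AT5G62575 in WT flg22) and 180 FPKM (AT3G10860 in WT flg22). The medians of the compared mitochondrial loci lay between 1.27 FPKM in WT mock and 2.01 FPKM in *wlim2a-1* mock, so the groups were unlike in level. Of 69 nuclear loci listed for subunits of complexes I to V and cytochrome *c*, 66 were compared and 0 were higher or lower by 2-fold in any of the 4 comparisons. Their medians were 0.07 for *wlim2a-1* against WT in mock, −0.00 after flg22, −0.09 for flg22 in *wlim2a-1* and 0.00 for flg22 in WT. By complex, the median in mock was 0.11 for complex I (18 loci), 0.03 for complex II (11), 0.21 for complex III (14), −0.12 for complex IV (9) and 0.10 for complex V (12). The cytochrome *c* genes *CYTC-1* and *CYTC-2* differed by 0.51 and 0.46 in mock. *CYTC-1* had 85.8 FPKM in *wlim2a-1* flg22, 103 in *wlim2a-1* mock, 76.4 in WT flg22 and 72.3 in WT mock.

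**Figure D5:**
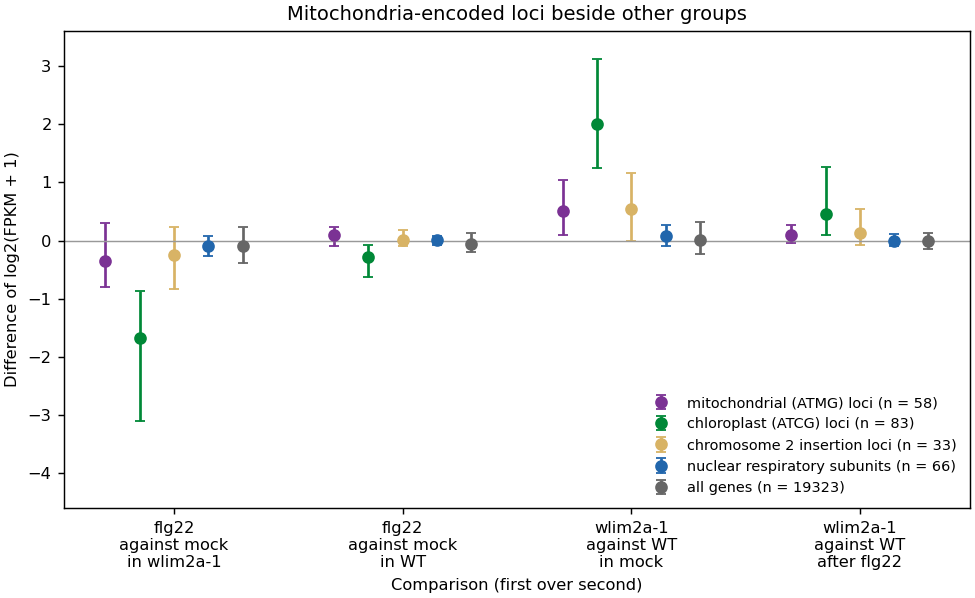
Median and quartiles (error bars) of the difference of log2(FPKM + 1) (vertical axis) in the 4 comparisons for the mitochondrial loci, the chloroplast loci, the loci of the mitochondrial copy on chromosome 2, nuclear respiratory subunits and all compared genes. In mock, the median of *wlim2a-1* over WT is 0.51 for the mitochondrial loci, 2.00 for the chloroplast loci, 0.55 for the chromosome 2 loci, 0.07 for the nuclear subunits and 0.01 for all genes. The mitochondrial and chromosome 2 values include loci that entered only through *wlim2a-1* mock. Over the 27 mitochondrial loci at 1 FPKM or more in every condition the median is 0.35.

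Nuclear genes of the respiratory bypass and of mitochondrial stress mostly stayed within 2-fold. The shares of all compared genes past 2-fold are those given above beside the nuclear respiratory genes. The alternative oxidases take electrons from ubiquinol directly to oxygen, and 2 of the 5 were compared. *AOX1A* had 22.1 FPKM in *wlim2a-1* flg22, 14.3 in *wlim2a-1* mock, 16.9 in WT flg22 and 8.59 in WT mock, with log2 differences of 0.59 for flg22 in *wlim2a-1*, 0.90 for flg22 in WT and 0.68 between the genotypes in mock. *AOX1D*, the other one compared, was at 1.10 FPKM or less in every condition. The type II NAD(P)H dehydrogenases bypass complex I, and 5 of the 7 were compared with none past 2-fold. *NDB2* was the nearest, with 1.75 FPKM in *wlim2a-1* flg22, 3.08 in *wlim2a-1* mock, 1.54 in WT flg22 and 1.14 in WT mock (0.94 in mock). Of 5 stress marker loci, 4 were compared and only *BCS1* (AT3G50930) passed 2-fold. *BCS1* had 27.9 FPKM in *wlim2a-1* flg22, 28.3 in *wlim2a-1* mock, 29.7 in WT flg22 and 4.84 in WT mock, so that WT mock was low and the other 3 were alike, with log2 differences of 2.39 for flg22 in WT and 2.33 between the genotypes in mock. The 4 listed loci for organelle RNA polymerases and for RNA degradation had no difference past 2-fold, and their medians in mock were 0.28 and 0.22. These nuclear loci were listed from general knowledge, and those named are a choice made after their values were seen.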

How the data were processed

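RNA-Seq covered 12 samples, 3 biological replicates in each of 4 conditions. The paper's methods name a stranded messenger RNA kit, and the sample labels a service provider's protocol with 30000000 guaranteed reads per sample. According to the labels and methods, reads were checked with FastQC 0.11.5 and aligned to TAIR 10 with TopHat2 2.1.1. Cufflinks, limma and Cuffdiff 2.2.1, the last with quartile normalization, are also named, without stating which gave the table. The deposited FPKM values, 1 per gene and condition, had been combined over replicates by the authors. They hold no counts, so the depth behind each value is unknown. The sources used here do not say how reads from near-identical copies were assigned.

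Genes with at least 1 FPKM in at least 1 condition were compared as differences of log2(FPKM + 1), with a pseudocount of 1 and a threshold of 2-fold, in Python 3.11.15 with pandas 2.3.3, numpy 2.4.6 and matplotlib 3.10.9. The steps were tested on simulated data. Share of genes called was computed over all compared genes and over those at 1 FPKM or more in every condition. Symbols came from RefSeq (TAIR 10.1), which found 26703 of 27371 loci and no ATMG identifier, so no ATMG symbol, sequence or position is given. The naming rule took all annotated loci and, of the others, the 3 largest rises and 3 largest falls per comparison among loci at 1 FPKM or more in every condition. As no ATMG locus was annotated, its second part was applied to all. The members, gene lists, thresholds and alternatives were chosen with earlier results of these data known. The alternatives were pseudocounts of 0.1 and 5, no minimum, a minimum of 5 FPKM, a minimum in every condition, 3 scalings, and thresholds of 1.5-fold and 4-fold.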

Additional observations from a re-analysis of the deposited data

Results flagged for a closer look

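The response of ATMG00280 to flg22 had opposite signs in the genotypes. The log2 difference between flg22 and mock was 1.03 in *wlim2a-1* (9.83 FPKM in flg22 and 4.29 in mock) and −1.13 in WT (1.09 FPKM in flg22 and 3.56 in mock), 2.16 apart. With a pseudocount of 5 the responses were 0.67 in *wlim2a-1* and −0.49 in WT, both within 2-fold. The median response of the 58 compared mitochondrial loci also had opposite signs as deposited, at −0.36 in *wlim2a-1* and 0.09 in WT. Of these loci, 17 entered only through *wlim2a-1* mock, so their lower value after flg22 follows from the entry rule. Among the 27 loci at 1 FPKM or more in every condition, 13 differences in *wlim2a-1* were positive and 14 negative. Scaled to *ACT2* and *UBQ10*, both medians over the 58 loci were negative, at −0.79 in *wlim2a-1* and −0.25 in WT. Neither the difference of ATMG00280 nor that of the medians was tested, because each condition has 1 combined value.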

How the results depend on the processing

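Scaling to *ACT2* and *UBQ10* turned the sign of the median response in WT (−0.25) and of 3 differences of named loci that were within 2-fold, ATMG00480 (−0.0047) and ATMG01010 (−0.02) for flg22 in WT and ATMG01360 (−0.07) for flg22 in *wlim2a-1*. No other median of the mitochondrial loci changed sign, nor did another difference that the naming rule chose in its own comparison. Other differences of these loci were not followed, apart from ATMG00030, whose differences between flg22 and mock turned negative under the same scaling. It also moved the median of all compared genes to −0.63 for flg22 in *wlim2a-1*, −0.54 for flg22 in WT and 0.10 for the genotypes in mock. Scaling to the sum without AT2G01021 moved it to 0.06 for flg22 in *wlim2a-1* and 0.13 for the genotypes after flg22, and scaling to the nuclear median moved it to −0.08 for the genotypes in mock. With no minimum FPKM, all 122 loci entered and the medians were 0 for flg22 in *wlim2a-1*, for the genotypes in mock and for the genotypes after flg22, since many loci are listed at or near 0. Counts of loci past the threshold depended on the low values, and shares in brackets are those of all genes under the same alternative. For *wlim2a-1* against WT in mock, 19 loci differed, against 29 with a pseudocount of 0.1 (8.17%), 1 with a pseudocount of 5 (2.33%), 3 of 16 with a minimum of 5 FPKM (5.91%), 5 of 27 with 1 FPKM in every condition (4.15%) and 2 at 4-fold (1.14%). After flg22, 4 loci differed between the genotypes, and the same alternatives gave 9 (2.75%), 1 (0.709%), 2 (1.62%), 1 (0.713%) and 1 (0.435%), with 8 at 1.5-fold (4.3%). For flg22 in *wlim2a-1*, 14 loci differed, and these alternatives gave 27 (13.8%), 2 (5.42%), 4 (11.9%), 3 (8.62%) and 1 (2.39%), with 29 at 1.5-fold (25.7%) and 25 when scaled to *ACT2* and *UBQ10* (24.2%). For flg22 in WT, 2 loci differed, and they gave 11 (6.8%), 0 (3.06%), 1 (6.32%), 1 (4.23%) and 0 (1.75%), with 4 at 1.5-fold (7.9% higher and 2.15% lower) and 1 when scaled to the sum without AT2G01021 (4.78%). For the difference between the responses, 17 loci differed, and they gave 26 (8.6%), 3 (2.25%), 5 (5.71%), 4 (3.82%) and 2 (1.17%), with 29 at 1.5-fold (17.6%). Of the differences of named loci under the alternatives, 169 stayed on the same side of 2-fold, 7 were no longer past it and 4 newly passed it.

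No paired analysis was possible because the table holds 1 combined value per condition and no replicate numbers, and leaving out replicates could not be run for the same reason. The alternatives without ribosomal and transfer RNA loci and without loci copied on chromosome 2 were not run, because no ATMG identifier could be annotated or paired with its copy. An alternative added after the data were seen left out the 4 loci that RefSeq places beyond the chromosome 2 copy, and the medians over the remaining 31 compared loci were 0.55 in mock, 0.14 after flg22, −0.25 for flg22 in *wlim2a-1* and 0.01 for flg22 in WT. The unknown number of reads behind each FPKM limits what can be said of loci near 1 FPKM.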
